A study of Mus musculus with 9 samples.

Results

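Anln, Ect2, Racgap1, Prc1, Cep55 and Cit encode proteins that carry out cytokinesis, the last step of cell division, and their transcripts were followed across 3 strains of HC11 cells. These are mammary epithelial cells from mid-pregnancy BALB/c mice that carry a mutated p53 gene. For each gene, the probeset annotated to that gene symbol alone was used, and where there were several, the one with the highest mean over the 9 arrays. Each of the 6 genes had 1 such probeset, of 19937 genes in all that had one, and all 6 had a mean log2 level of at least 4, the expression minimum of the study. HC11-FL control cells expressed full length Mkl1, a coactivator of serum response factor (SRF), fused at its C-terminus to red fluorescent protein. HC11-mutB1 cells expressed the same fusion with alanine substitutions in the SRF-interaction site. HC11-ΔSAP cells expressed the fusion without its SAP domain, a potential DNA-binding domain. All strains kept their endogenous Mkl1, had been selected with Geneticin and sorted for the fluorescent tag, and were starved for 48 h in 0.03% FCS without EGF before RNA was extracted, with 3 arrays per strain. Each construct was represented by 1 sorted strain and no empty vector strain was arrayed, so that a difference due to the construct and one due to the strain cannot be told apart. The comparisons ask which of these transcripts depend on the SAP domain and which on the SRF-interaction site of the overexpressed Mkl1.

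The arrays were alike in quality. Array medians lay between 4.53 and 4.60, the correlation over all probesets was 0.994 to 0.995 within strains and 0.985 to 0.989 between them, and no array was left out. The Mkl1 probeset is not known to separate construct from endogenous gene, and whether it covers the deleted SAP sequence was not examined. Its level differed from that of the control by -0.48 on the log2 scale in HC11-ΔSAP cells (SE 0.07, adjusted p = 0.0018 by limma). In HC11-mutB1 cells the difference was -0.12 (adjusted p = 0.31). All 6 epithelial markers examined were above the expression minimum and all 4 endothelial markers were below it. Of the 4 measured immune and 5 fibroblast markers, 2 and 4 were above it, among them Cd68 at 7.69 ± 0.01 and decorin (Dcn) at 5.01 ± 0.06 in HC11-FL control cells. Decorin lay at 6.82 ± 0.02 in HC11-ΔSAP cells and at 4.52 ± 0.02 in HC11-mutB1 cells (mean ± SD, n = 3). The other fibroblast markers did not follow decorin. Pdgfra differed from the control by -0.42 in HC11-ΔSAP and 0.51 in HC11-mutB1 cells. Col1a1, Col1a2 and Lum did not pass the test in either strain. Cd68 differed in the directions of decorin, by 0.45 in HC11-ΔSAP (adjusted p = 0.00013 by limma) and -0.34 in HC11-mutB1 cells (adjusted p = 0.00062). Cd3e, the other immune marker above the minimum, did not pass in either strain. The epithelial markers averaged 10.12 to 10.17 per array in HC11-FL, 10.30 to 10.33 in HC11-mutB1 and 9.61 to 9.65 in HC11-ΔSAP cells, and the fibroblast markers 5.08 to 5.22, 5.06 to 5.13 and 5.32 to 5.42. The epithelial means hide opposite differences, since in HC11-ΔSAP cells Krt5 (-1.90) and Krt18 (-1.36) were lower but Epcam (0.42) and Cdh1 (0.37) higher. In HC11-mutB1 cells Krt5 (1.15), Krt14 (0.59) and Epcam (0.54) were higher but Krt8 (-0.72) and Krt18 (-0.65) lower. The part of these shifts in the values given below was not tested.

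During anaphase the spindle reorganizes into a midzone of overlapping antiparallel microtubules, which tells the cell cortex where to cleave. Prc1 cross-links these microtubules and recruits the kinesin Kif4. Racgap1 forms the centralspindlin complex with the kinesin Kif23 and binds Ect2, the exchange factor that loads RhoA with GTP at the equator. Active RhoA builds the contractile ring of actin and myosin, in which anillin (Anln) ties RhoA, actin, myosin and septins together, while citron kinase (Cit), held by the kinesin Kif14, organizes the midbody that remains of the ring. Cep55 then gathers Alix (Pdcd6ip) and Tsg101 at the midbody, which bring in the ESCRT-III proteins that cut the bridge between the daughter cells. Most of these genes are known to be transcribed mainly late in the cell cycle, through DREAM and MuvB complexes and the cell cycle genes homology region (CHR) of their promoters, often together with CCAAT boxes.

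The genes lie on separate chromosomes of the GRCm38.p6 assembly: Prc1 on chromosome 7, Racgap1 on 15, Ect2 on 3, Anln on 9, Cit on 5 and Cep55 on 19. Since all 6 transcripts differed in the same order between the strains, their promoter windows, taken from RefSeq as 250 bases before to 50 bases after the annotated start, were searched on both strands for the CHR letters TTTGAA, for CCAAT, for the E2F letters GCGGGAA and for the CArG box that binds SRF. The windows of the 5 genes that held a CHR match are shown from 5′ to 3′ on the strand of the gene, with the TTTGAA and CCAAT matches of either strand in capitals (TTCAAA and ATTGG where the match is on the opposite strand). They cover chr7:80294201-80294500 (plus strand), chr15:99651607-99651906 (minus strand), chr3:27153829-27154128 (minus strand), chr9:22389157-22389456 (minus strand) and chr19:38054734-38055033 (plus strand).
Prc1: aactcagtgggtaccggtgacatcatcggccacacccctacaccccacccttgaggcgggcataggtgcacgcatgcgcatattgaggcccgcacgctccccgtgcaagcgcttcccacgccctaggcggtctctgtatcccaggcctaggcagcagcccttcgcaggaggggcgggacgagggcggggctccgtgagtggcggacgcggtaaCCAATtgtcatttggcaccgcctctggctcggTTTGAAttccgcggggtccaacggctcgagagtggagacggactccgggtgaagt
Racgap1: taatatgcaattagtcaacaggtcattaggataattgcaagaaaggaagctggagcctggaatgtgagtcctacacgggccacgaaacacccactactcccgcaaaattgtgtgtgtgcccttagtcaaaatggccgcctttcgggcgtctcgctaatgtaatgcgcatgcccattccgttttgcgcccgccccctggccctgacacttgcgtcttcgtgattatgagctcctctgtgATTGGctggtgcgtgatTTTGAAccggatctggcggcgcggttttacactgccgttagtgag
Ect2: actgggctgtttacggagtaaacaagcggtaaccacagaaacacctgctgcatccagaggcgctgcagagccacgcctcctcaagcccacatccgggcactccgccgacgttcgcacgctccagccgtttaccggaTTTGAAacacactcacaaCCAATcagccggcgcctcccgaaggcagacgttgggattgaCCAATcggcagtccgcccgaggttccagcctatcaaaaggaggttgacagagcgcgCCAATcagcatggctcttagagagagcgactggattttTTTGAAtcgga
Anln: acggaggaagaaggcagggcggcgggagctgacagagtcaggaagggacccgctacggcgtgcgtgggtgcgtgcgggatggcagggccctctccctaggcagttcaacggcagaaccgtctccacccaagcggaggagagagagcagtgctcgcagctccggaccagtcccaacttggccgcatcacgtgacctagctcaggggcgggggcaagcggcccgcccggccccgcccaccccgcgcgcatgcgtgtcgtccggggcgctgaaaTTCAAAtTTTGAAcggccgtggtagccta
Cep55: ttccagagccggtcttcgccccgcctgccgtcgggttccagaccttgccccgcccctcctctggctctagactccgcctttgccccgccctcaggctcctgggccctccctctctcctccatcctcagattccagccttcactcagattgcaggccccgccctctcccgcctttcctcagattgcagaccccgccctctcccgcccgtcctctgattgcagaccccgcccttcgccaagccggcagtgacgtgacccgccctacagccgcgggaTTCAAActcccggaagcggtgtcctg

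TTTGAA occurred in the windows of 5 of the 6 genes, against 20.2% of the 27025 genes in the RefSeq table. CCAAT occurred in 3 of 6 (41.1% of all genes), and TTTGAA together with CCAAT in the same 3, namely Ect2, Racgap1 and Prc1 (7.97% of all genes). In these windows none of the searched motifs overlapped another. In Prc1 the CCAAT match started 37 bases and the TTTGAA match 5 bases before the annotated start. Racgap1 had an opposite-strand CCAAT match 12 bases before and a TTTGAA match 6 bases after the start. In the windows shown, the CHR letters of Anln and Cep55 lay downstream of the annotated start, at 22 and 29 bases in Anln and at 25 bases in Cep55. Ect2, Prc1 and Cep55 each have a second annotated start and window, and the distances here and the sequences above refer to the first. In the second window of Prc1 the matches start 62 (CCAAT) and 30 bases (TTTGAA) before the start, and in that of Cep55 the TTTGAA match lies 33 bases before it, upstream rather than downstream. The window of Cit held neither motif. It starts at base 115845406, inside the annotated gene, which begins at 115845224, so the sequence before the first base of Cit was not searched. Both windows of Ect2, which end at bases 27154128 and 27154104, also lie inside the annotated gene. On the minus strand Ect2 begins at 27154253, so the sequence before its first base was not searched either. No window of the 6 genes held GCGGGAA (5.29% of all genes) or a CArG box (1.81% of all genes). These matches describe letters only, and an absent match says nothing about binding of the factor.

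**Figure D1:**
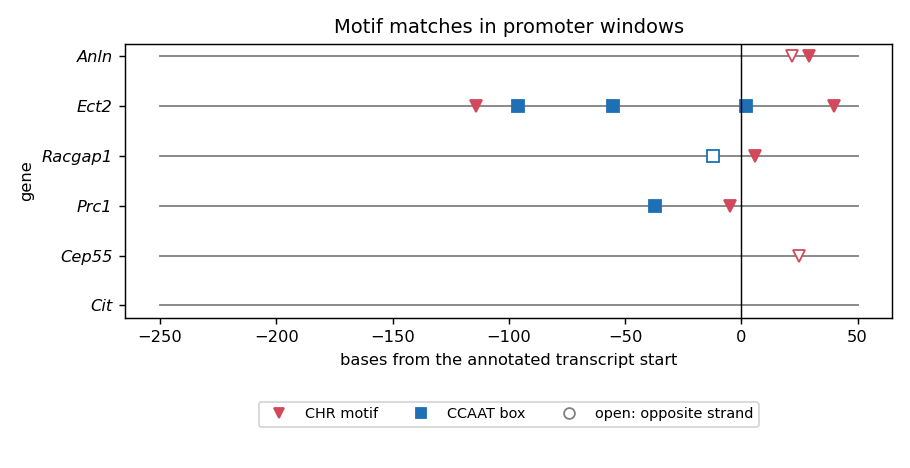
Positions of CHR (TTTGAA, red triangles) and CCAAT (blue squares) matches in the first RefSeq promoter window of each cytokinesis gene, as the first base of the match relative to the annotated transcript start on the x-axis in bases. Open symbols lie on the opposite strand. In these windows the matches of Racgap1 and Prc1 sit within 37 bases of the start, Ect2 holds 5 matches and the Cit window none.

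All 6 transcripts were present in HC11-FL control cells, lower in HC11-ΔSAP cells and higher in HC11-mutB1 cells. Of the midzone proteins, Prc1 had log2 levels of 7.57, 7.54 and 7.63 on the HC11-FL arrays, 8.11, 8.05 and 8.14 on the HC11-mutB1 arrays and 5.79, 5.71 and 6.05 on the HC11-ΔSAP arrays. Racgap1 lay at 8.57, 8.51 and 8.53 in HC11-FL, at 8.99, 9.02 and 9.06 in HC11-mutB1 and at 7.66, 7.31 and 7.48 in HC11-ΔSAP cells. For both genes the 3 strains did not overlap, and the spread was widest in HC11-ΔSAP cells, where the SD was 0.18 for Prc1 and 0.17 for Racgap1. Ect2, the RhoA exchange factor, measured 8.23, 8.29 and 8.35 in HC11-FL, 8.75, 8.96 and 8.89 in HC11-mutB1 and 6.71, 6.73 and 6.97 in HC11-ΔSAP cells. The lowest HC11-FL array of Ect2 thus stood well above the highest HC11-ΔSAP array.

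Anillin, the ring scaffold, had the same value of 8.52 on all 3 HC11-FL arrays, with 9.0, 9.12 and 9.06 in HC11-mutB1 and 6.89, 6.81 and 6.96 in HC11-ΔSAP cells. Such repeats are common in the deposited table, where 15714 probesets (45.2%) have a value that recurs on another array, and among the 6 genes Anln alone was affected. Citron kinase lay at 5.90, 5.85 and 5.94 in HC11-FL, at 6.37, 6.12 and 6.24 in HC11-mutB1 and at 4.98, 4.92 and 4.89 in HC11-ΔSAP cells. Its HC11-FL and HC11-mutB1 arrays were the closest of any gene and strain pair, with a gap of 0.17 between the nearest arrays. Cep55, which starts abscission, had 6.86, 6.91 and 6.90 in HC11-FL, 7.52, 7.57 and 7.59 in HC11-mutB1 and 5.27, 5.21 and 5.44 in HC11-ΔSAP cells. Its gap between HC11-FL and HC11-mutB1 arrays, 0.61, was the widest of the 6 genes.

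**Figure D2:**
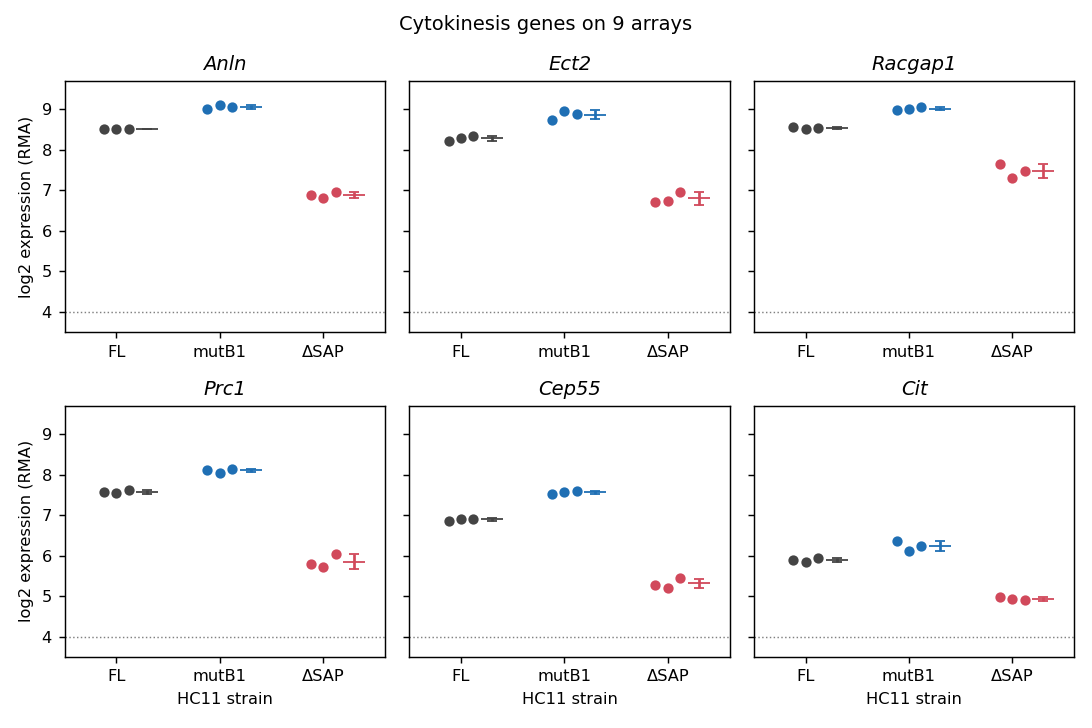
Log2 expression (RMA) of each cytokinesis gene on the y-axis for the 3 strains on the x-axis. Dots are single arrays, the bar beside them is the mean with its SD (n = 3), and the dotted line is the expression minimum of 4. In every panel the HC11-mutB1 arrays lie above and the HC11-ΔSAP arrays below the HC11-FL arrays.

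Loss of the SAP domain went with lower levels of all 6 transcripts relative to HC11-FL control cells. Prc1 was lower by 3.31-fold (log2 fold change -1.73, SE 0.08, adjusted p = 5.1e-06 by limma) and Anln by 3.1-fold (-1.63, SE 0.05, adjusted p = 5.7e-07). Cep55 followed with 2.98-fold (-1.58, SE 0.06, adjusted p = 1.7e-06) and Ect2 with 2.8-fold (-1.49, SE 0.09, adjusted p = 1.3e-05). Racgap1 and Cit lay next to the fold minimum of 2 on either side. Racgap1 was lower by 2.07-fold (-1.05, 95% confidence interval -1.24 to -0.86, adjusted p = 5.6e-05) and Cit by 1.96-fold (-0.97, interval -1.12 to -0.81, adjusted p = 3.2e-05). With these values, 5 of the 6 genes passed all filters of the study (adjusted p of at most 0.01, fold of at least 2 and mean log2 level of at least 4), against 1.51% of the 20286 probesets above the expression minimum. At any fold, 6 of 6 were lower, against 10.1%. In 6 of 6 every HC11-ΔSAP array lay below every HC11-FL array, against 23.1%. In the opposite direction, where none of the 6 lay, the shares were 1.49%, 11.9% and 22.7%. The median log2 fold change was -1.53, where that of all expressed probesets was -0.013. Without HC11-ΔSAP replicate 2 Racgap1 came to -0.97 and 4 genes passed all filters. With the spread of Anln raised to the median of all probesets, its adjusted p was 5.9e-07.

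In HC11-mutB1 cells none of the 6 transcripts was lower. All were higher than in the control, by less than the fold minimum. The largest difference was that of Cep55, 1.59-fold (log2 fold change 0.67, SE 0.06, adjusted p = 0.00016 by limma), followed by Ect2 with 1.5-fold (0.58, SE 0.09, adjusted p = 0.002) and Anln with 1.46-fold (0.54, SE 0.05, adjusted p = 0.00017, or 0.003 with its spread raised to the median). The midzone genes Prc1 and Racgap1 were higher by 1.44-fold (0.52, adjusted p = 0.0032) and 1.4-fold (0.48, adjusted p = 0.0039), and Cit by 1.27-fold (0.34, SE 0.07, adjusted p = 0.0086). None of the 6 therefore passed all filters (1.65% of expressed probesets did so as higher). All 6 passed the adjusted p at any fold, against 11.9%. In 6 of 6 every HC11-mutB1 array lay above every HC11-FL array, against 24.2%. As lower, 1.21% of expressed probesets passed all filters, 8.32% passed at any fold and 22.5% had no overlap between arrays. The calls of Anln and Cep55 held whichever array was left out. Those of Racgap1 and Prc1 were lost without any 1 of the HC11-FL or HC11-mutB1 arrays (adjusted p up to 0.018 and 0.015), that of Ect2 without HC11-mutB1 replicate 3 (adjusted p = 0.01 after rounding), and that of Cit without any array but HC11-mutB1 replicate 2 (adjusted p up to 0.032).

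Because the control lay between them in these 6 genes, the mutants necessarily differed more from each other than either did from the control. Over all expressed probesets the mutants did not differ more from each other. The median absolute log2 fold change was 0.14 between the mutants, 0.16 for HC11-ΔSAP and 0.17 for HC11-mutB1 versus HC11-FL. Between HC11-ΔSAP and HC11-mutB1 cells the difference was 4.76-fold for Prc1 (log2 fold change -2.25, SE 0.08), 4.75-fold for Cep55 (-2.25, SE 0.06), 4.51-fold for Anln (-2.17, SE 0.05), 4.19-fold for Ect2 (-2.07, SE 0.09), 2.9-fold for Racgap1 (-1.54, SE 0.08) and 2.48-fold for Cit (-1.31, SE 0.07). The adjusted p-values by limma ran from 1.9e-07 for Anln to 9e-06 for Racgap1, so that all 6 genes passed all filters, against 1.7% of expressed probesets. At any fold the background was 8.45%, and the shares of probesets higher in HC11-ΔSAP cells were 1.16% and 7.25%. The nearest arrays of the 2 mutants were apart by 1.13 to 2.08, and 22.3% of expressed probesets separated these arrays in the same direction (21.5% in the other). In all 3 comparisons exact two-sided permutation of the 3 and 3 arrays gave p = 0.1 for every gene, the smallest p it allows. The comparisons share arrays, so the 3 sets of values are not independent.

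**Figure D3:**
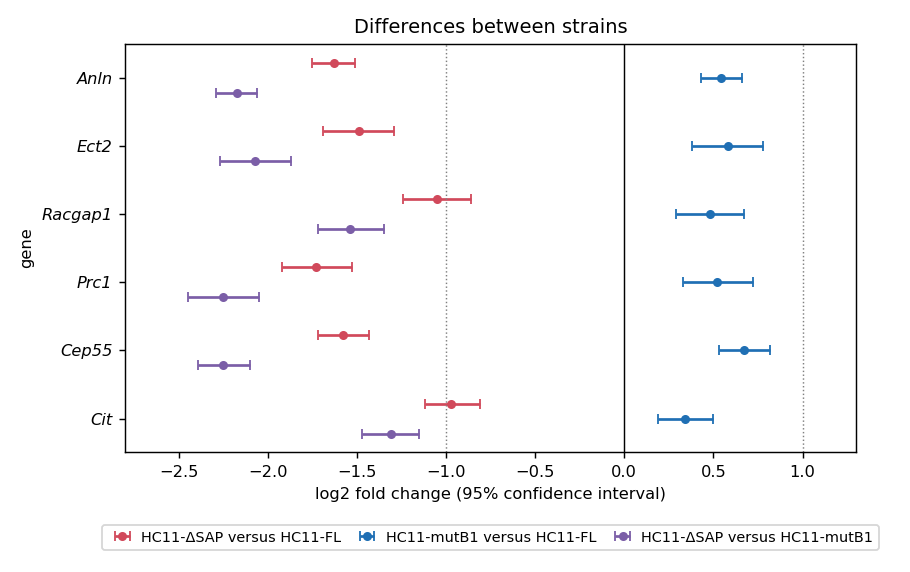
Log2 fold changes (x-axis) of the 6 cytokinesis genes (y-axis) for HC11-ΔSAP versus HC11-FL (red), HC11-mutB1 versus HC11-FL (blue) and HC11-ΔSAP versus HC11-mutB1 (purple), with 95% confidence intervals from limma. Dotted lines mark a fold of 2. No interval reaches 0, and Racgap1 and Cit sit on the dotted line for HC11-ΔSAP versus HC11-FL.

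The 6 genes shared 1 pattern over the arrays. The order was HC11-ΔSAP, then HC11-FL, then HC11-mutB1 for each, and strain accounted for 98.3% (Racgap1) to 99.8% (Anln) of the variance over 9 arrays. On the way from HC11-mutB1 down to HC11-ΔSAP, the HC11-FL mean lay at 23.2% for Prc1, 25.0% for Anln, 26.1% for Cit, 28.1% for Ect2, 29.9% for Cep55 and 31.4% for Racgap1. The control was therefore closer to HC11-mutB1 than to HC11-ΔSAP cells in all 6. What set the genes apart was the size of the step, as the range over the 9 arrays was 2.25 to 2.43 for Ect2, Anln, Cep55 and Prc1 but 1.74 for Racgap1 and 1.48 for Cit. The correlation of each gene with the mean of the other 5 was r = 0.988 (Cit) to 0.999 (Anln and Cep55) over 9 arrays, which fall into 3 strains and were normalized together, so that it mostly repeats the order of the strain means. Within strains the deviations were small. HC11-ΔSAP replicate 2 lay below the mean of its strain in all 6 genes, and no other array lay to 1 side of its strain mean in all 6.

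Many, but not all, markers of cycling cells showed the same order of strains. Of the 10 proliferation markers chosen, 9 had a usable probeset, and all 9 were above the expression minimum. Compared with HC11-FL control cells, 6 of the 9 were lower in HC11-ΔSAP cells by all filters and 7 at any fold, with a median log2 fold change of -1.24, and in HC11-mutB1 cells 5 were higher at any fold, with a median of 0.38. The shares of expressed probesets were 1.51% and 10.1% lower in HC11-ΔSAP cells and 11.9% higher in HC11-mutB1 cells. The strain means of 5 of the 9 followed the order of the cytokinesis genes and those of 4 did not. No share of all expressed probesets was counted for this order, here or for the 6 cytokinesis genes. Mcm2, Ccne1 and Ccnb2 differed by -0.19 (adjusted p = 0.052), -0.18 (adjusted p = 0.12) and -0.04 (adjusted p = 0.85) in HC11-mutB1 cells, 2 of them at an unadjusted p under 0.05 by limma. Mki67, the antigen of the Ki-67 antibody, differed by -1.47 in HC11-ΔSAP (adjusted p = 4.1e-05 by limma) and by 0.99 in HC11-mutB1 cells (adjusted p = 0.00036). The replication clamp Pcna differed by 0.01 (adjusted p = 0.98) and 0.38 (adjusted p = 0.22), while its second probeset gave 0.08 (adjusted p = 0.36) and 0.68 (adjusted p = 3.7e-05). The mean of the 9 markers per array was 8.55 to 8.61 in HC11-FL, 8.96 to 9.08 in HC11-mutB1 and 7.48 to 7.63 in HC11-ΔSAP cells. Centred on their means over the 9 arrays, the cytokinesis genes averaged 0.28 to 0.32, 0.80 to 0.84 and -1.21 to -1.03 in these strains, and the markers 0.16 to 0.22, 0.57 to 0.69 and -0.91 to -0.76. RNA came from whole cultures, in which fewer dividing cells and less of these transcripts per dividing cell cannot be told apart. The part of the proliferation markers in the differences of the 6 genes was not tested.

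**Figure D4:**
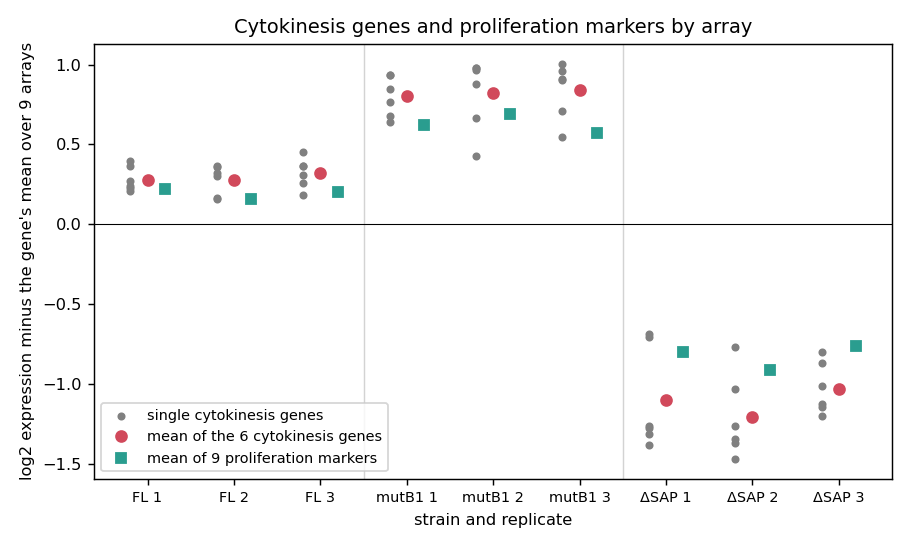
Log2 expression minus each gene's mean over 9 arrays (y-axis) for every strain and replicate (x-axis). Small grey dots are the 6 cytokinesis genes, red circles their mean and green squares the mean of 9 proliferation markers. Both means lie highest in HC11-mutB1 and lowest in HC11-ΔSAP cells, and the mean of the cytokinesis genes spans the wider range. In HC11-ΔSAP versus HC11-mutB1 cells the single markers differ by -2.55 to -0.37 and the cytokinesis genes by -2.25 to -1.31. The marker mean thus averages larger and smaller differences.

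The proteins with which these genes work were examined as 4 groups of 38 partners, 37 of which had a usable probeset (Rock2 did not). By all filters 9 of the 37 had lower levels in HC11-ΔSAP cells than in the control and none a higher one. These shares compare with 1.51% and 1.49% of expressed probesets. At any fold 14 were lower and 6 higher, against 10.1% and 11.9%, and at an unadjusted p under 0.05 by limma 18 and 10. In HC11-mutB1 cells none passed all filters of limma against HC11-FL. At any fold 10 were higher and 3 lower there, against 11.9% and 8.32% of expressed probesets, so that the share of lower genes was near the background. At an unadjusted p under 0.05 by limma it was 19 higher and 5 lower. No share of all expressed probesets was counted at this unadjusted threshold. The unadjusted counts here and for the groups below therefore have no background beside them.

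Each of the 5 kinesins of the midzone and midbody passed all filters as lower in HC11-ΔSAP cells (1.51% of expressed probesets), with a median log2 fold change of -1.55. Kif23, the partner of Racgap1 in centralspindlin, lay at 6.92, 6.99 and 7.01 in HC11-FL, 7.46, 7.43 and 7.58 in HC11-mutB1 and 5.24, 5.38 and 5.66 in HC11-ΔSAP cells, and was lower in the last by 2.93-fold (-1.55, SE 0.10, adjusted p = 2.2e-05 by limma). Kif4, which Prc1 recruits, was lower by 3.06-fold (-1.61, SE 0.13, adjusted p = 6.7e-05), Kif20b, a midzone and midbody kinesin, by 3.15-fold (-1.65, adjusted p = 1.5e-05) and Kif14, the partner of Cit, by 2.48-fold (-1.31, SE 0.14, adjusted p = 0.00033). A second Kif14 probeset, with a mean of 2.86 below the expression minimum, gave -0.10. In HC11-mutB1 cells 3 of the 5 kinesins were higher at any fold (11.9% of expressed probesets). Kif20a, named after its values were seen, differed by 0.77 (adjusted p = 1.2e-05), Kif4 by 0.70 (adjusted p = 0.006) and Kif23 by 0.51 (adjusted p = 0.0078), while Kif20b at 0.45 (adjusted p = 0.014) and Kif14 at 0.25 (adjusted p = 0.31) did not pass. Each of the 3 structural pairs, Racgap1 with Kif23, Prc1 with Kif4 and Cit with Kif14, was thus lower in both partners in HC11-ΔSAP cells.

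The chromosomal passenger complex and the polo kinase Plk1 position centralspindlin and license its binding to Ect2. All 5 genes of this group were lower in HC11-ΔSAP cells at any fold (10.1% of expressed probesets) and 3 of them by all filters (1.51%), with a median log2 fold change of -1.22. Plk1 was lower by 2.89-fold (-1.53, adjusted p = 3.3e-06 by limma), Aurkb, the kinase of the complex, by 2.36-fold (-1.24, adjusted p = 2.8e-05) and borealin (Cdca8) by 2.34-fold (-1.22, adjusted p = 2e-05). Incenp and survivin (Birc5), the members under the fold minimum, which were named after their values were seen, were lower by 1.86-fold (-0.90) and 1.36-fold (-0.44). In HC11-mutB1 cells 4 of the 5 were higher at any fold (11.9% of expressed probesets). Aurkb differed by 0.81 (adjusted p = 0.00029) and Plk1 by 0.40 (adjusted p = 0.0042), and Cdca8 at 0.28 (adjusted p = 0.038) did not pass.

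RhoA, its effectors, non-muscle myosin II and the septins, which serve the cortex throughout the cell cycle, had calls in both directions. Of the 14 measured, 4 were lower and 1 was higher in HC11-ΔSAP cells at any fold, with a median log2 fold change of -0.16, and in HC11-mutB1 cells 2 were lower and 1 was higher. Apart from the 4 lower in HC11-ΔSAP cells (10.1% of expressed probesets), these counts are near the background of 11.9% higher in either strain and 8.32% lower in HC11-mutB1 cells. Diaph3, a formin that RhoA activates to build ring actin, was the only one of the 14 to pass all filters, with 6.99, 7.2 and 7.15 in HC11-FL, 6.81, 6.90 and 6.81 in HC11-mutB1 and 5.86, 5.79 and 6.15 in HC11-ΔSAP cells (2.27-fold lower, -1.18, SE 0.10, adjusted p = 8.1e-05 by limma). In HC11-mutB1 cells Diaph3 differed by -0.27 (adjusted p = 0.11). Rhoa itself differed by 0.15 (adjusted p = 0.048) in HC11-ΔSAP and 0.08 (adjusted p = 0.26) in HC11-mutB1 cells, and its second probeset by 0.09 and 0.06. The septins went separate ways. Sept9, with the same value of 9.19 on all HC11-ΔSAP arrays, was higher in both mutants (0.69, adjusted p = 2.6e-05, and 0.92, adjusted p = 5.4e-06), and Sept11 fell short of the control in HC11-ΔSAP cells (-0.51, adjusted p = 5.5e-05) and stood at -0.17 in HC11-mutB1 cells (adjusted p = 0.017).

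None of the 13 ESCRT and spastin genes of abscission, which act after Cep55, passed as lower in HC11-ΔSAP cells. At any fold 10.1% of expressed probesets did so, so that the absence of lower calls among 13 genes is near the background. Irrespective of fold, 5 passed as higher, against 11.9% of expressed probesets, and 8 missed the adjusted p, with a median log2 fold change of 0.14. At an unadjusted p under 0.05 by limma 6 were higher and 2 lower. Alix (Pdcd6ip), bound directly by Cep55, lay at 10.32, 10.33 and 10.39 in HC11-FL, 10.23, 10.28 and 10.27 in HC11-mutB1 and 10.31, 10.31 and 10.38 in HC11-ΔSAP cells, where the difference was -0.01 (95% confidence interval -0.11 to 0.09, adjusted p = 0.94 by limma). Tsg101, the other protein that Cep55 binds, differed by 0.07 (adjusted p = 0.69), and its second probeset by 0.09. The HC11-ΔSAP and HC11-FL arrays overlapped for both genes, while the HC11-mutB1 arrays of Alix lay below those of the other strains (-0.08, adjusted p = 0.26). The largest differences were those of Chmp1a (0.74, adjusted p = 0.00078), the ATPase Vps4a that disassembles ESCRT-III (0.58, adjusted p = 0.00022) and Chmp2a (0.34, adjusted p = 0.00096). In HC11-mutB1 cells Vps4a was likewise higher (0.68, adjusted p = 0.0001), while Chmp1a at 0.45 (adjusted p = 0.011) and Chmp2a at 0.19 (adjusted p = 0.02) did not pass. Between HC11-ΔSAP and HC11-mutB1 cells, where Cep55 differed by 4.75-fold, none of the 13 passed by limma at any fold. Of all expressed probesets 8.45% were lower and 7.25% higher in this comparison, so that the absence of calls is near the background. At an unadjusted p under 0.05 by limma 4 were higher and 1 was lower.

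**Figure D5:**
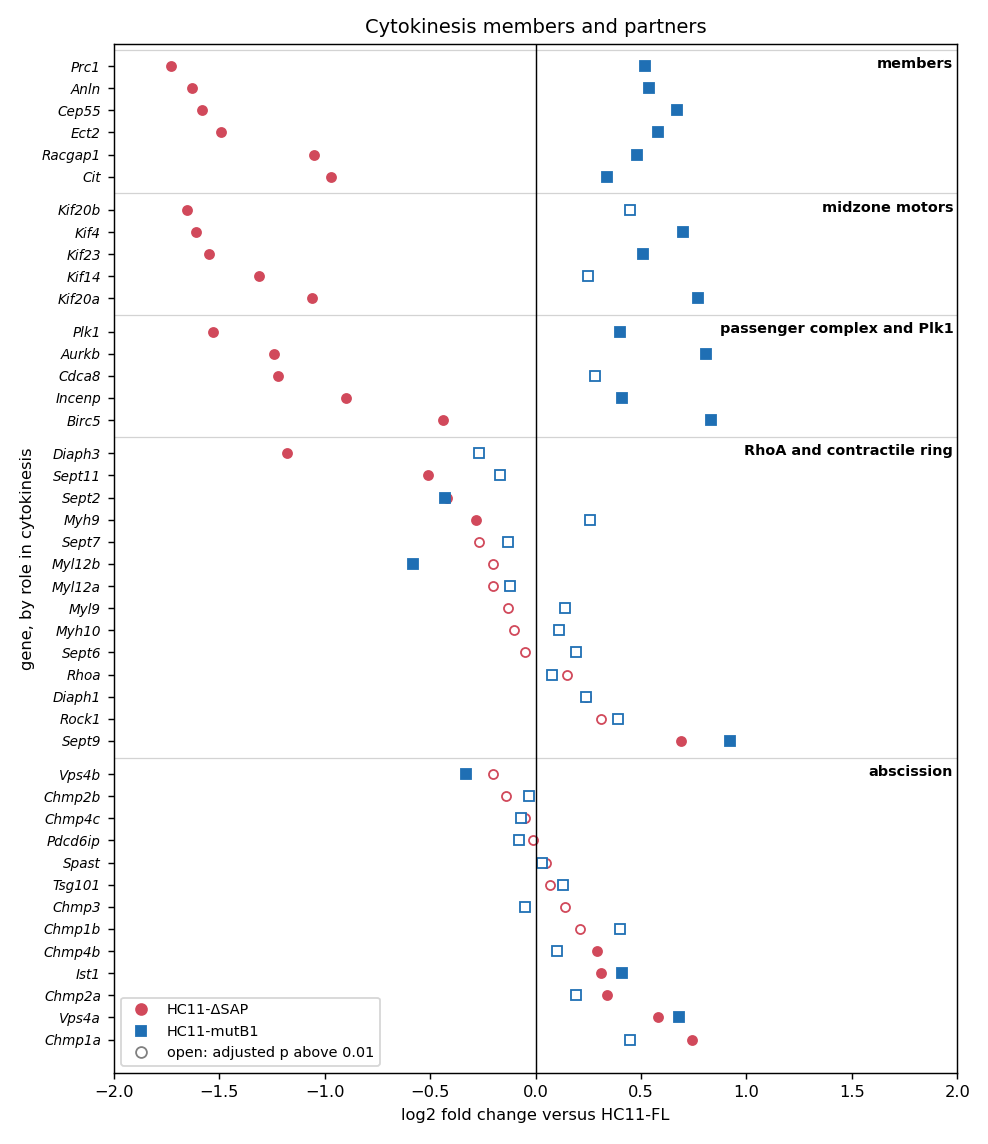
Log2 fold changes versus HC11-FL (x-axis) of the 6 cytokinesis genes and their 37 measured partners (y-axis), grouped by role. Red circles are HC11-ΔSAP and blue squares HC11-mutB1 cells, and open symbols have an adjusted p above 0.01. The kinesins and the passenger complex lie to the left of 0 in HC11-ΔSAP cells like the cytokinesis genes, whereas most ring and abscission genes lie closer to 0, with Diaph3 at -1.18 and 5 abscission genes higher.

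Promoter windows were on record for 4 of the 5 kinesins, and 4 of 4 held TTTGAA, 3 CCAAT and 1 a CArG box. Of the 3 passenger complex genes with a window, 2 held TTTGAA and 2 CCAAT. In the contractile ring group TTTGAA was found in 2 of 11 genes and in the abscission group in 2 of 11, next to 20.2% of all genes. CCAAT was found in 4 and 2 of these, a CArG box in 1 of each group, and GCGGGAA in 2 abscission genes. Of the 7 proliferation markers with a window, 5 held TTTGAA and 6 CCAAT. These counts describe the windows and were not tested.

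Of 13150 expressed genes compared with the mean of the 6 cytokinesis genes over the 9 arrays, 126 had r of at least 0.98. The closest was topoisomerase Top2a, which untangles chromosomes before they separate (r = 0.9985), followed by the mitotic kinase Cdk1 (r = 0.9976). The next 3 were not mitotic genes: carbonic anhydrase Car12 (r = 0.9975), the kinesin family member Kif26b (r = 0.9973) and the hemidesmosome collagen Col17a1 (r = 0.9972). In HC11-ΔSAP cells they differed from HC11-FL control cells by -1.68 (Top2a), -1.24 (Cdk1), -2.19 (Car12), -2.66 (Kif26b) and -1.44 (Col17a1) on the log2 scale, and in HC11-mutB1 cells by 0.71, 0.37, 0.62, 0.80 and 0.71. These r values rest on the order and spacing of 3 strain means and are a description.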

How the data were processed

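Total RNA of 9 samples, 3 per strain, was measured on Affymetrix Mouse Gene ST arrays, and samples were grouped by their labels. The authors deposited log2 values of 34760 probesets, computed by RMA (background correction, quantile normalization and median polish). According to the processing notes of the submitters, affy was run in R 2.10.0. Genome build and annotation release are not given in the sources used here. RMA gives all arrays 1 distribution, so a shift common to most transcripts would not be seen, and the scanner files were not used here. The number of arrays limits the precision. The labels call the arrays triplicates without saying how the cultures were related, so p-values measure the spread between these samples, which may be technical.

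Probesets were named from the array's annotation, in which 21640 have 1 symbol, 1321 several and 11799 none listed. Comparisons used limma 3.58.1 (R 4.3.3) on all 9 arrays, with a mean for each strain and a shared spread (6 residual and 1.93 prior degrees of freedom) and Benjamini-Hochberg adjustment over all probesets, using the filters of the methods. Scripts were tested on simulated data. The 6 genes and the gene lists were chosen with earlier results of these data known. Partners named in the text are the 3 of each group with the largest change in HC11-ΔSAP versus HC11-FL, together with Kif23, Kif4, Kif14, Aurkb, Plk1 and Rhoa. Pdcd6ip, Tsg101, Kif20a, Incenp, Birc5 and the cell type and proliferation markers other than Mki67, Top2a and Pcna fall outside this rule and were named after their values were seen. The 5 genes most alike were taken by Pearson's r with the mean of the 6. Promoter windows came from RefSeq (GRCm38.p6). Alternatives were other scalings, fits, fold minima and filters, a block for the replicate number, and leaving out each array. The replicate numbers were not taken as pairs.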

Additional observations from a re-analysis of the deposited data

How the results depend on the processing

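For the 6 cytokinesis genes, 18 fold changes were recomputed under 17 alternatives each. All 306 values kept their direction and 281 their side of the adjusted p threshold of 0.01. The calls that were lost all concern HC11-mutB1 versus HC11-FL, 12 for Cit, 6 each for Racgap1 and Prc1 and 1 for Ect2. Cit was lost without 8 of the 9 arrays and in 4 other fits, among them the one with the spread raised to the median of all probesets (adjusted p = 0.04), and its adjusted p ranged from 0.0039 to 0.04. The number of cytokinesis genes lower in HC11-ΔSAP versus HC11-FL was 4 to 5 with 1 array left out and 6 with a fold minimum of 1.5, and that in HC11-ΔSAP versus HC11-mutB1 was 6 throughout. Counts that depend on the fold minimum changed by construction. Against HC11-FL, the cytokinesis genes higher in HC11-mutB1 were 0 at a fold minimum of 2, 1 at 1.5 and 6 without a minimum. Of the partners, 9 were lower in HC11-ΔSAP versus HC11-FL at a fold of 2 and 14 without a minimum, and 2 were higher at 1.5 and 6 without. In HC11-mutB1 versus HC11-FL 6 partners were higher at 1.5 and 10 without a minimum, and 3 were lower without. In HC11-ΔSAP versus HC11-mutB1 1 partner was higher without a minimum. With 1 array left out, the partners lower in HC11-ΔSAP numbered 9 against HC11-FL and 10 to 11 against HC11-mutB1. When all probesets of a gene were averaged, 8 partners were lower in HC11-ΔSAP versus HC11-FL. Deviations of arrays with the same replicate number correlated between strains at r = -0.107 to 0.257, so the numbers were not taken to pair the samples. With the replicate number as a block, the cytokinesis genes passing all filters were 5 lower in HC11-ΔSAP versus HC11-FL, 0 in HC11-mutB1 versus HC11-FL and 6 lower in HC11-ΔSAP versus HC11-mutB1, the partners lower in HC11-ΔSAP were 9 and 10, and the adjusted p of Cit in HC11-mutB1 versus HC11-FL was 0.012. No background level was measured. The HC11-ΔSAP arrays of Cit, at 4.89 to 4.98, lie near the array medians of 4.53 to 4.60, and whether low signal compressed the fold of Cit was not tested.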
